A study of Mus musculus with 78 samples.

Results

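Neuronal structure and synapse genes were followed in mouse cerebral arteries as 8 genes taken by name: Nefl, Nefm, Nefh, Stmn2, Snap25, Syt1, Rph3a and Sez6l2. The rule took the protein-coding rows with these names, and it found 8 of 8 among the 54532 genes of the deposited table. No measured value entered the rule itself, but the genes were chosen with earlier results of these data known. RNA sequencing covered 78 libraries of cerebral arteries from male wild-type C57Bl6 mice, whose age was not given in the sources used here. For 3 months the mice had food ad libitum (AL) or were kept on intermittent fasting (IF). Surgery followed, either sham or bilateral carotid artery stenosis (BCAS), a narrowing of the 2 neck arteries that leaves the brain with less blood flow over weeks. Arteries were labelled as collected 1, 7, 14, 21 or 30 days after surgery, which made 20 groups named sham AL, sham IF, BCAS AL and BCAS IF by day. Groups held 4 libraries, but sham IF day 7 and BCAS AL day 1 held 3 each. Day 7 rests on the group labels alone, because the treatment text did not list it and the design text counted 4 time points. Apart from separate titles, nothing tied the libraries to separate animals, so the p-values describe the spread between these libraries only.

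Neurofilaments are the intermediate filaments of axons and are built from a light, a medium and a heavy subunit, and they are abundant in large myelinated nerve fibres. At the synapse, vesicles fuse with the membrane when SNARE proteins zip together, and calcium sensors trigger that step. All 8 genes are commonly used as neuronal genes, whereas the wall of an artery is made mainly of smooth muscle and endothelium, and cerebral arteries carry nerve fibres and lie against the brain surface.

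Depth ran from 14601572 to 25944175 fragments per library, and 12586 to 13449 genes had at least 1 FPKM (fragments per kilobase of gene, scaled to depth). The tissue label was checked against marker lists summed over their genes: 8 smooth muscle markers summed to 2153 to 8841 FPKM and 9 endothelial markers to 535.1 to 1113 FPKM. Of brain cell lists, the 10 astrocyte markers summed to 121.4 to 233.2 FPKM and the 11 oligodendrocyte markers to 14.7 to 209.4 FPKM. In BCAS AL day 1 replicate 2 and in replicates 2 and 4 of sham AL day 7, genes under 300 bases took 0.279%, 0.282% and 0.322% of fragments, against a median of 0.0626% over all libraries. Results on day 7 are therefore also given without these 3 libraries.

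Promoter sequence was at hand for Rph3a (3 start sites) and Syt1 (2 start sites), a pair that varied together across libraries (r = 0.668). The 250 bases before 1 start of each gene are shown, because both hold GGACAG, a stretch of letters within RE1, the element through which the repressor REST silences neuronal genes outside neurons. The sequences are from RefSeq on GRCm38.p6, minus strand, written 5′ to 3′, with the reverse complement of GGACAG in capitals.
Rph3a chr5:121009539-121009788: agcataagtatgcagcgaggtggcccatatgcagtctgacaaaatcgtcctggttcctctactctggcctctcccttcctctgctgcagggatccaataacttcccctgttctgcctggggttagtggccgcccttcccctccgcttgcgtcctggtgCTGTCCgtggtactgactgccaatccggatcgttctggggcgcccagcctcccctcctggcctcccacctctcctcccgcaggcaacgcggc
Syt1 chr10:109010976-109011225: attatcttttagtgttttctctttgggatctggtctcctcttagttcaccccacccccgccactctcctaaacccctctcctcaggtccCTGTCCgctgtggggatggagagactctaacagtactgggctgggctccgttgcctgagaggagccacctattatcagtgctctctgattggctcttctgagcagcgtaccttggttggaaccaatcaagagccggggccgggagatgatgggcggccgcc
The match lies at -92 to -87 from the start in Rph3a and at -161 to -156 in Syt1. These letters were chosen after the sequences had been seen. Searched on both strands of windows from 250 bases before to 50 after a start, they occurred in 3 of the 5 windows of these genes and in 22.2% of 32851 windows of all genes. A match is a description of letters and not evidence of binding.

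The level of the genes fell into a broad order, with Stmn2 far above the rest. Stmn2, which encodes stathmin-2, a regulator of growing axon microtubules, had a median of 15.4 FPKM and a range of 10.5 to 19.3 FPKM over the 78 libraries. The medians of the other genes were 1.22 FPKM for Sez6l2, 1.01 for Snap25, 0.643 for Nefl, 0.434 for Syt1, 0.407 for Rph3a, 0.209 for Nefm and 0.197 for Nefh. Stmn2 exceeded Sez6l2 in 78 of 78 libraries and Sez6l2 exceeded Snap25 in 50. Neighbours further down also changed places between libraries: Snap25 exceeded Nefl in 62, Nefl exceeded Syt1 in 61, Syt1 exceeded Rph3a in 46, Rph3a exceeded Nefm in 69 and Nefm exceeded Nefh in 37. These levels rest on few fragments for the lowest genes, with a median of 15 fragments per library for Nefh and 22 for Nefm, against 1688 for Stmn2. All 8 genes passed the filter of at least 1 FPKM in at least 3 libraries. Nefm passed it through exactly 3 libraries (replicate 3 of sham AL day 7, replicate 4 of sham AL day 14 and replicate 1 of sham IF day 14), and Nefh through those and BCAS AL day 14 replicate 3. Rph3a passed it through 4 libraries, with replicates 1 and 3 of sham AL day 7 among them.

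The spread between libraries also set Stmn2 apart. Its coefficient of variation over all libraries was 14.3% and its highest value was 1.84 times its lowest. For the other genes that coefficient ran from 55.7% for Sez6l2 to 123% for Nefh, and the ratio of the highest to the lowest library was 10.6 for Sez6l2, 22.1 for Syt1, 36.2 for Snap25, 43.1 for Rph3a, 49.8 for Nefl and 52.5 for Nefm. Nefh reached 2.54 FPKM in its highest library, and its lowest library held 1 fragment, so no ratio is given. When the 20 groups were ordered by their mean, no pair of neighbouring groups was separated in any gene: for each of the 8 genes, 0 of 19 neighbouring pairs had libraries that did not overlap. The order came from the same values, which places groups of like mean side by side, and the share over all genes was not computed.

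**Figure D1:**
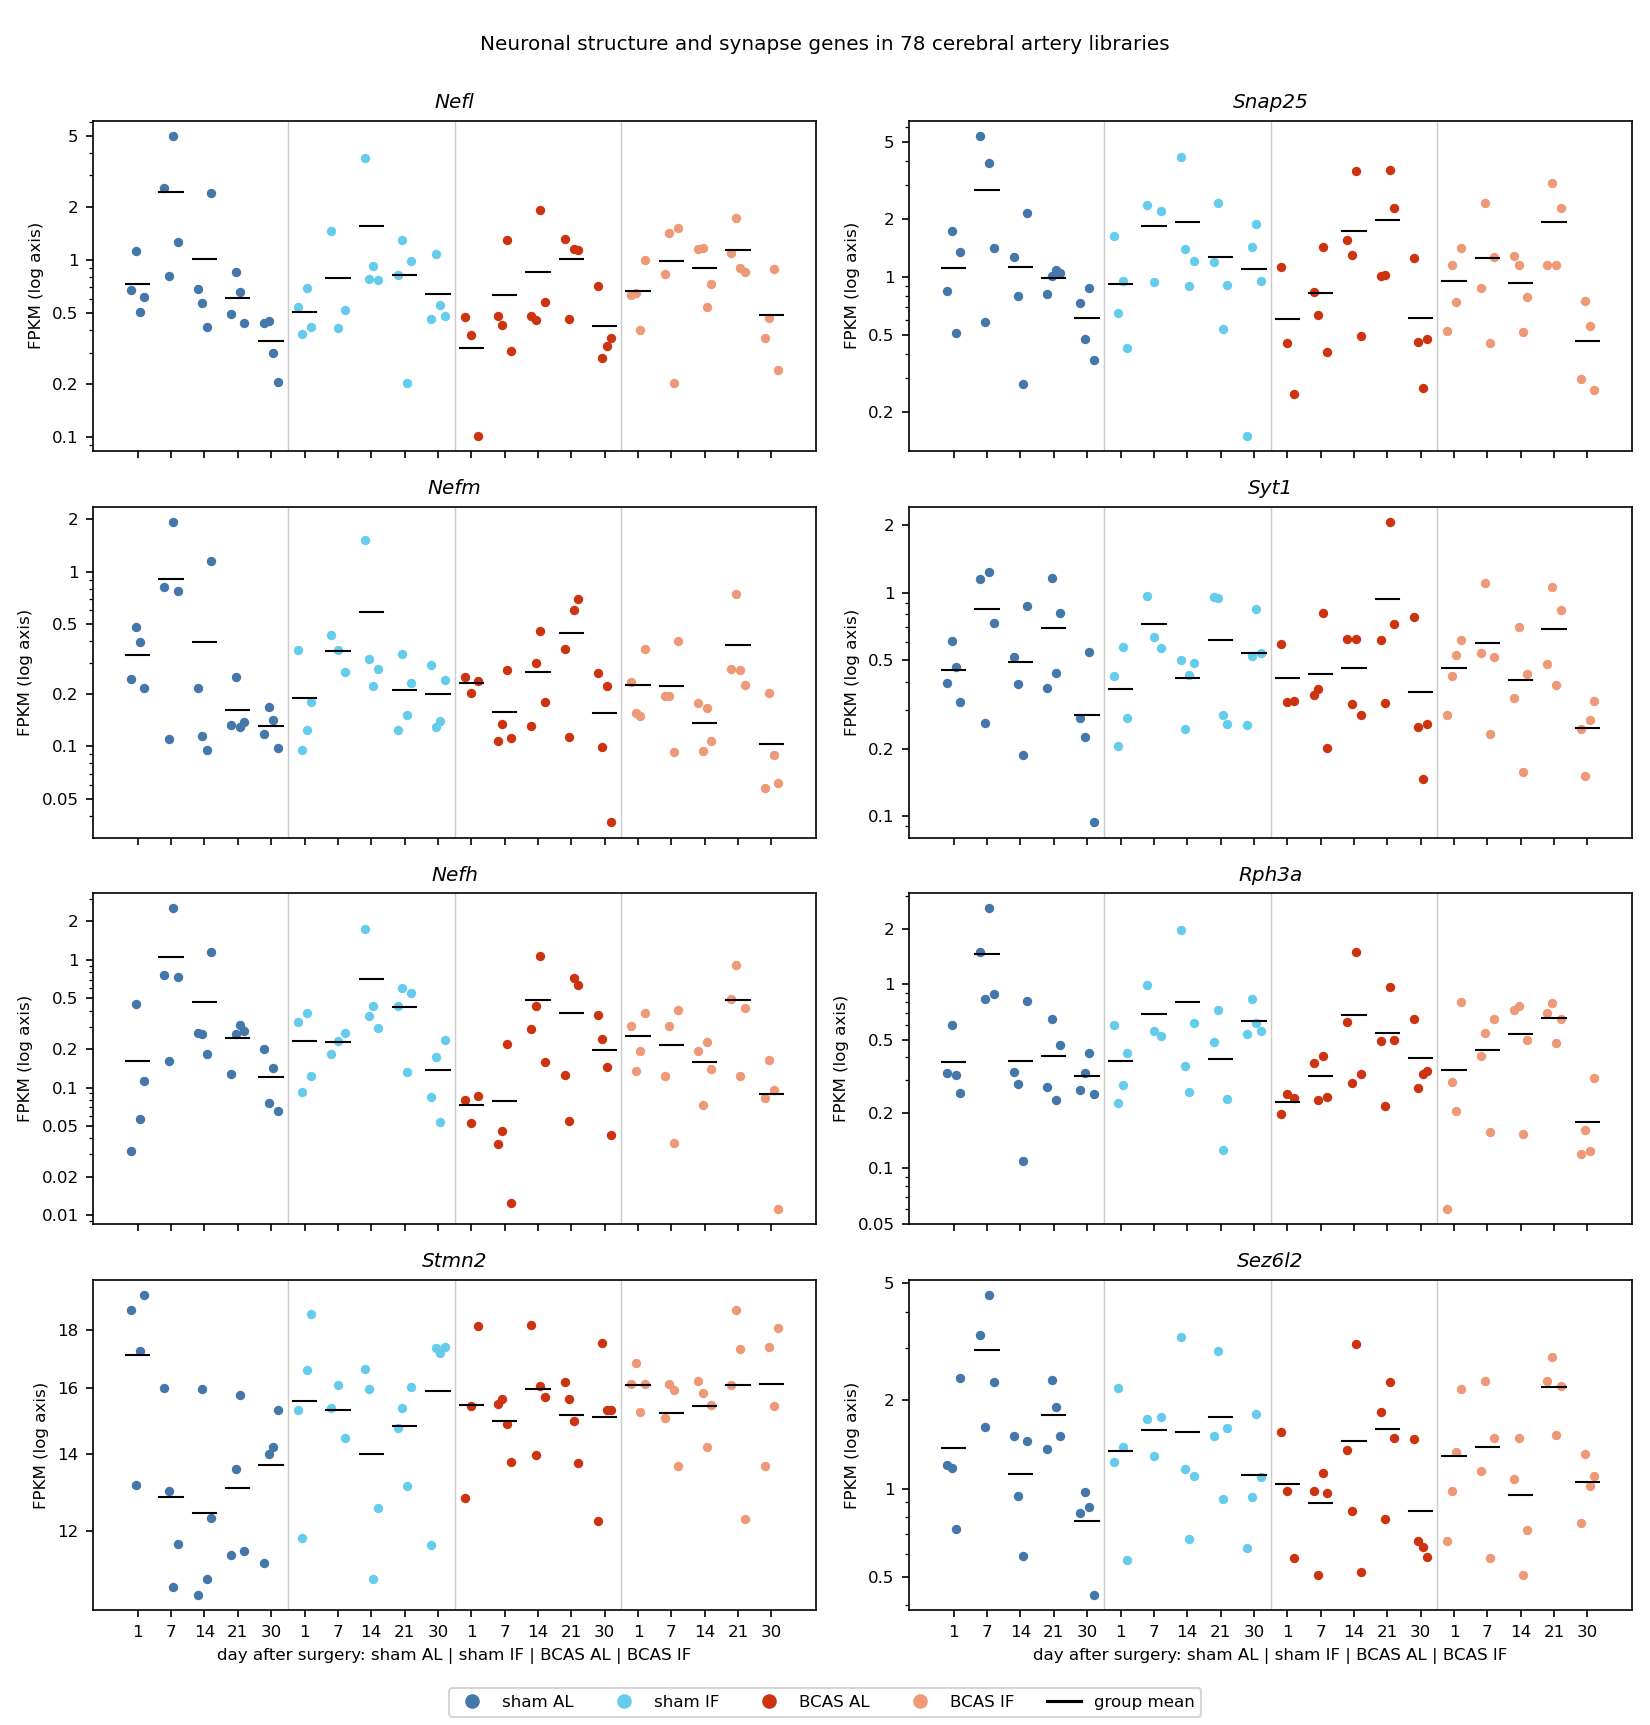
FPKM on a log axis for each gene in each of the 78 libraries (points), by arm and day after surgery, with the group mean as a black bar. Sham AL day 7 had the highest mean for Nefl, Nefm, Nefh, Snap25, Rph3a and Sez6l2, while Stmn2 stayed between 10.5 and 19.3 FPKM.

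Nefl, the light neurofilament subunit, lies on chromosome 14 at 68083863 to 68089095 on the plus strand (GRCm38), and Nefm, the medium subunit, at 68082590 to 68124846 on the minus strand. Their exons share 1108 bases, 32.8% of the exon bases of Nefl and 19.2% of those of Nefm. Whether the authors' counting used strand was not stated, so fragments from the shared stretch cannot be assigned to either gene. Nefh, the heavy subunit, lies apart on chromosome 11 at 4938754 to 4948064, minus strand. Nefl exceeded Nefm in 77 of 78 libraries, with a median ratio of 3.23, and exceeded Nefh in 78 of 78, with a median ratio of 2.62. The ratio of Nefm to Nefh had a median of 0.997 and ranged from 0.288 to 8.98.

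Stmn2 lies on chromosome 3 at 8509360 to 8561606, plus strand. Of the synaptic genes, Snap25, a SNARE protein of the plasma membrane, lies on chromosome 2 at 136713453 to 136782428, plus strand. Syt1, a calcium sensor on synaptic vesicles, lies on chromosome 10 at 108497650 to 109010982, minus strand. Rph3a encodes rabphilin-3A, a protein that binds Rab3 on vesicles, on chromosome 5 at 120940499 to 121010092, minus strand. Sez6l2, a membrane protein of the neuronal Sez6 family, lies on chromosome 7 at 126950563 to 126970606, plus strand, and shares 413 exon bases (9.81%) with Gm21984 on the same strand.

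At day 7 under free feeding, 5 of the 8 genes were lower after BCAS than after sham: the 3 neurofilament subunits, Rph3a and Sez6l2. In that contrast limma called 2.63% of the 15707 genes tested, and 0.987% were called lower. Changes are log2 differences of log2(FPKM + 1), with standard errors and Benjamini-Hochberg adjusted p-values over all genes, and this scale understates the change of genes at low values. Earlier results of these data already held several of these differences, so they are not independent support. In bulk tissue, fewer cells of a type and less RNA per cell cannot be told apart.

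Nefl stood at 2.54, 0.816, 5.04 and 1.27 FPKM in the 4 sham AL libraries of day 7 and at 0.481, 0.431, 1.30 and 0.307 FPKM in the 4 BCAS AL libraries. Sham replicates 1 and 3 were the high libraries, and BCAS replicate 3 lay within the sham range. Nefl fell by 0.95 (SE 0.27, adjusted p = 0.0395).

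Nefm stood at 0.820, 0.111, 1.93 and 0.773 FPKM in sham AL and at 0.108, 0.134, 0.274 and 0.111 FPKM in BCAS AL. Sham replicate 2 was as low as the BCAS libraries, so the groups overlapped. The change of Nefm was a fall of 0.64 (SE 0.17, adjusted p = 0.0333). Nefm passed the filter through 3 libraries only, and sham replicate 3 of this contrast was among them, so its entry to the test was not independent of these values.

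Nefh stood at 0.760, 0.161, 2.54 and 0.736 FPKM in sham AL and at 0.0359, 0.0457, 0.218 and 0.0124 FPKM in BCAS AL. The BCAS values came from 3, 4, 17 and 1 fragments, and only replicate 3 reached the lowest sham library. Nefh fell by 0.81 (SE 0.20, adjusted p = 0.0201).

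Rph3a stood at 1.504, 0.829, 2.59 and 0.884 FPKM in sham AL and at 0.371, 0.236, 0.408 and 0.245 FPKM in BCAS AL. Every sham library lay above every BCAS library. Rph3a fell by 0.85 (SE 0.19, adjusted p = 0.0105). It reached 1 FPKM in 4 libraries only, and sham replicates 1 and 3 of this contrast were among them. Without these it would have missed the filter, so its entry to the test was not independent of these values.

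Sez6l2 stood at 3.34, 1.61, 4.57 and 2.31 FPKM in sham AL and at 0.977, 0.509, 1.13 and 0.963 FPKM in BCAS AL. These groups did not overlap either, which made 2 of 8 genes with separate libraries, against 2.32% of all genes tested that were lower without overlap. Sez6l2 fell by 1.02 (SE 0.26, adjusted p = 0.0241).

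Snap25 had the same direction without passing the test, with 5.40, 0.585, 3.89 and 1.41 FPKM in sham AL and 0.831, 0.638, 1.43 and 0.408 FPKM in BCAS AL. Sham replicate 2 lay inside the BCAS range, and the difference was -0.89 (SE 0.33, adjusted p = 0.113). Syt1 stood at 1.16, 0.261, 1.23 and 0.734 FPKM in sham AL and at 0.350, 0.372, 0.810 and 0.202 FPKM in BCAS AL, a difference of -0.35 (SE 0.19, adjusted p = 0.286). Stmn2 differed in sign, at 16.0, 13.0, 10.7 and 11.7 FPKM in sham AL and 15.5, 15.7, 14.9 and 13.8 FPKM in BCAS AL, a difference of 0.22 (SE 0.13, adjusted p = 0.360). In sham AL replicate 3, which had the highest Nefl, Nefm, Nefh, Rph3a and Sez6l2 of all 78 libraries, Stmn2 ranked 77 of 78.

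**Figure D2:**
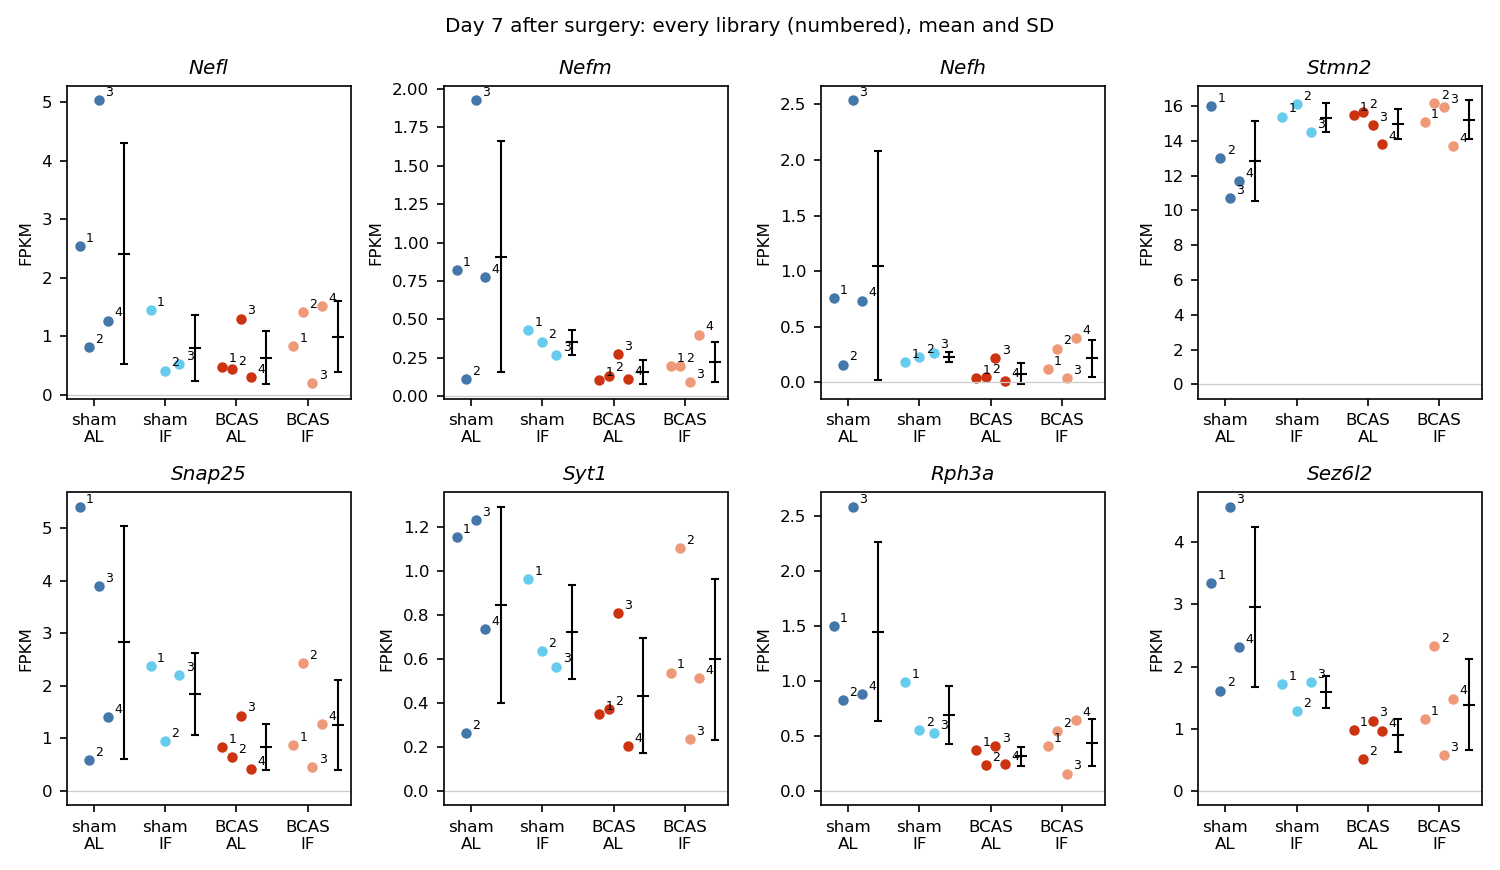
FPKM of each gene at day 7 in sham AL, sham IF, BCAS AL and BCAS IF, with points numbered by replicate and black bars for the mean and SD. Rph3a and Sez6l2 had no overlap between sham AL and BCAS AL, and sham AL replicate 3 was the highest point in Nefl, Nefm, Nefh, Syt1, Rph3a and Sez6l2.

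The day 7 calls leaned on single libraries and on the shared spread. A fit of the 2 groups alone called 0 of the 8 genes, with adjusted p from 0.508 for Sez6l2 to 0.701 for Syt1 and the same log2 differences, and it called 0 of all genes. Without sham AL replicate 3, 1 of the 8 was called, and without BCAS AL replicate 2, 0 were. Leaving out sham AL replicate 4 or BCAS AL replicate 4 also left 1 call, while leaving out BCAS AL replicate 1 left 4. Rph3a lost its call with 1 library left out (BCAS AL replicate 2, adjusted p = 0.0559), and the mean of sham over the mean of BCAS was 4.61 for Rph3a with all libraries and 3.40 without sham replicate 3. That ratio went from 3.31 to 2.71 for Sez6l2, from 3.83 to 2.44 for Nefl, from 5.79 to 3.62 for Nefm and, with the largest move of the 5, from 13.45 to 7.08 for Nefh. Without the 3 libraries rich in short genes, 6 of 8 were called, with Snap25 at -1.64 (SE 0.37, adjusted p = 0.0227), and the sham group then held replicates 1 and 3.

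Markers of oligodendrocytes, the cells that make myelin in the brain, moved with the neurofilament genes on day 7. The 11 markers summed to 71.6, 29.8, 185.5 and 50.1 FPKM in sham AL and to 33.6, 22.98, 39.4 and 26.6 FPKM in BCAS AL. Of the 9 tested, 2 fell in BCAS AL and 7 did not pass, and the median over the 9 was -0.96. Hapln2, a myelin gene, was among those that fell (-0.96, adjusted p = 0.00948). None of the 10 astrocyte markers passed, and their sums were 152.9 to 220.9 FPKM in sham AL and 154.9 to 172.8 FPKM in BCAS AL. The median was 0.04 over 8 smooth muscle markers, 0.04 over 9 endothelial markers and 0.01 over all genes tested. Sham AL replicate 4 had the lowest smooth muscle sum of all libraries, 2153 FPKM. The part of these cells in the fall of the 5 genes was not tested.

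Neuronal genes were also described by list on the same contrast, and counts and medians include the genes followed here. Nefl, Nefm, Nefh and Stmn2 belong to the list of axon filaments and microtubules. Snap25, Syt1 and Rph3a belong to the list of vesicle release. Of 16 tested genes of axon filaments and microtubules, 4 fell, and the median was -0.52. They were Nefh, Nefm, Nefl and Kif5a, a kinesin motor of axons (-0.96, adjusted p = 0.0226). Only Kif5a lay outside the genes followed here. Of 20 tested genes of vesicle release 1 fell, with a median of -0.22. It was Rph3a, which is among the genes followed here. Napb, a SNARE recycling factor, stood at -0.29 (adjusted p = 0.0949) and Syn2, a synapsin of synaptic vesicles, at -0.29 (adjusted p = 0.153). Of 7 tested genes of receptors, channels and the postsynaptic density 0 passed, with a median of -0.22, and the nearest was Camk2b, a kinase of the postsynaptic side (-0.34, adjusted p = 0.0776). None of the 3 tested genes of glutamate and GABA neurons passed: Gad1, which makes GABA, stood at -0.40 (adjusted p = 0.154). Markers of sympathetic fibres, which run along arteries, differed in level. Dbh was listed at 0 in 71 of 78 libraries and Slc6a2 in 64, while medians were 0.215 FPKM for Th, 1.21 for Npy and 1.26 for Slc18a2. Of the 12 listed genes of sympathetic and sensory neurons, 4 had a median under 0.1 FPKM and 2 a median of at least 1 FPKM. Prph, the peripheral neurofilament partner, had a median of 0.716 FPKM and differed by -0.24 (adjusted p = 0.527).

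No gene was called on the other days under free feeding. Over days 1, 14, 21 and 30 limma called 0 of the 32 gene-by-day tests, where it called 0.376%, 0.337%, 0% and 0.357% of all genes. At an unadjusted p under 0.05 there was 1 of 32, against 6.54% to 11.6% of all genes, and limma-voom on the recovered fragments called 0. On day 1, 2 of 8 genes were lower after BCAS with no overlap between libraries, against 4.67% of all genes. Nefl stood there at 0.676, 1.12, 0.506 and 0.617 FPKM in sham AL and 0.476, 0.377 and 0.101 FPKM in BCAS AL, a difference of -0.39 (SE 0.29, adjusted p = 0.621), and Rph3a was the other gene, at -0.16 (SE 0.21, adjusted p = 0.816). Averaged over the 5 days, 0 of 8 were called, against 0.987% of all genes.

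Under fasting, BCAS and sham did not differ beyond the threshold in any of the 8 genes. Limma called 0 of 40 gene-by-day tests, where it called 0.00637%, 0.153%, 0%, 0% and 0.0891% of all genes on days 1, 7, 14, 21 and 30, and 0.758% for the mean of days. Unadjusted, 3 of 40 had p under 0.05, where single days held 3.12% to 11.3% of all genes, and limma-voom called 0. The 3 were Nefm and Nefh on day 14 and Rph3a on day 30, each lower after BCAS with no overlap between libraries, which 1.16% of all genes were on day 14 and 2.92% on day 30. On day 14 Nefh stood at 1.75, 0.364, 0.437 and 0.294 FPKM in sham IF and 0.193, 0.0735, 0.229 and 0.140 FPKM in BCAS IF, a difference of -0.49 (SE 0.20), and Nefm differed by -0.41 (SE 0.17), both with an adjusted p of 1. On day 30 Rph3a stood at 0.534, 0.826, 0.613 and 0.558 FPKM in sham IF and 0.120, 0.162, 0.125 and 0.310 FPKM in BCAS IF, a difference of -0.47 (SE 0.19, adjusted p = 0.323). At day 7 Nefl stood at 1.45, 0.411 and 0.525 FPKM in sham IF and 0.836, 1.41, 0.202 and 1.52 FPKM in BCAS IF, which overlapped, with a difference of 0.14 (SE 0.29, adjusted p = 0.974). Rph3a stood at 0.993, 0.556 and 0.523 FPKM in sham IF and 0.406, 0.546, 0.158 and 0.645 FPKM in BCAS IF, with a difference of -0.23 (SE 0.21, adjusted p = 0.873).

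The day 7 difference was not shown to depend on diet. The interaction was 1.08 for Nefl (SE 0.39, adjusted p = 0.247), 0.78 for Nefh (SE 0.29, adjusted p = 0.256), 0.61 for Rph3a (SE 0.28, adjusted p = 0.376) and 0.85 for Sez6l2 (SE 0.38, adjusted p = 0.360). Limma called 0 of 40 interaction tests over the 5 days, against 0%, 0.0318%, 0%, 0% and 0% of all genes, and 0 of 8 for the mean of days, against 0.0127%. Unadjusted, 5 of 40 had p under 0.05, 4 of them on day 7, where 11.7% of all genes did (4.44% to 11.7% over the 5 days), and limma-voom called 0.

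Fasting against free feeding after sham touched the same sham AL day 7 libraries, so this contrast is not independent of the BCAS contrast. At day 7, 0 of 8 genes were called, against 9.05% of all genes, and 5 of 8 had an unadjusted p under 0.05, all lower under IF, against 25.7% of all genes in either direction. Nefh stood at 0.184, 0.232 and 0.269 FPKM in sham IF, inside the sham AL range, with a difference of -0.62 (SE 0.21, adjusted p = 0.0567). Nefl differed by -0.82 (SE 0.29, adjusted p = 0.0589), Rph3a by -0.49 (SE 0.21, adjusted p = 0.115) and Snap25 by -0.26 (SE 0.36, adjusted p = 0.688). Limma-voom called 0 of 8. Quantile normalization called 3 (Nefl, Nefm and Nefh), and the fit without the 3 libraries rich in short genes called 4, those and Rph3a (-0.84, SE 0.24, adjusted p = 0.0459). Leaving out sham AL replicate 2 also brought in Nefl, Nefm and Nefh, with Nefh at an adjusted p of 0.0109.

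No other diet contrast called a gene. After sham, IF against AL on days 1, 14, 21 and 30 gave 0 of 32, against 3.67%, 4.39%, 0.382% and 4.82% of all genes. After BCAS it gave 0 of 40 on days 1, 7, 14, 21 and 30, against 4.37%, 2.25%, 5.67%, 0.802% and 1.35%. For the mean of days 0 of 8 were called after sham (23.7% of all genes) and 0 of 8 after BCAS (23.1%). Unadjusted, 0 of 32 and 0 of 40 had p under 0.05 on single days, against 9.97% to 17.9% of all genes after sham and 12.4% to 18.5% after BCAS, and limma-voom called 0. Libraries did not overlap for Nefl and Rph3a after sham on day 30, higher under IF (5.37% of all genes), and for Nefh after BCAS on day 1, also higher under IF (8.68%). Stmn2 was nearest, 0.13 higher under IF after sham in the mean of days (SE 0.06, adjusted p = 0.109), and it was called once sham IF day 30 replicate 1 was left out (0.16, adjusted p = 0.0446).

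Across days, 5 genes differed within sham AL, the arm that held the high day 7 libraries. Limma's F test over the 5 days called Rph3a (adjusted p = 0.00427), Nefl (0.0113), Sez6l2 (0.0135), Nefm (0.0215) and Nefh (0.0230), in an arm where 17.3% of all genes were called. Nefm, Nefh and Rph3a passed the filter only with the help of libraries of this arm, so their entry to this test was not independent of it. For Nefm and Nefh these libraries were day 7 replicate 3 and day 14 replicate 4, and for Rph3a day 7 replicates 1 and 3. Rph3a had means of 0.376 ± 0.154, 1.45 ± 0.818, 0.384 ± 0.298, 0.407 ± 0.191 and 0.317 ± 0.0766 FPKM (SD, n = 4) on days 1, 7, 14, 21 and 30. Day 7 alone stood high, with its lowest library at 0.829 FPKM above the highest of any other sham AL day, 0.807 FPKM on day 14. Sez6l2 followed with 1.37 ± 0.708, 2.96 ± 1.29, 1.12 ± 0.438, 1.78 ± 0.435 and 0.774 ± 0.235 FPKM (SD, n = 4). Nefl had 0.731 ± 0.271, 2.42 ± 1.90, 1.02 ± 0.919, 0.613 ± 0.186 and 0.349 ± 0.118 FPKM (SD, n = 4), so the SD of day 7 was most of its mean. Without sham AL day 7 replicate 3, 0 of these 5 calls held, without replicate 4 of that group 3 held, and a fit of the sham AL libraries alone also called 0.

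Stmn2 in sham AL was high on day 1, at 18.7, 13.2, 17.3 and 19.3 FPKM, against means of 12.9 ± 2.30, 12.4 ± 2.50, 13.1 ± 2.07 and 13.7 ± 1.74 FPKM (SD, n = 4) on days 7, 14, 21 and 30. Its F test missed the threshold (adjusted p = 0.0652). It was called when any of 4 libraries was left out: sham AL day 1 replicate 2 (0.0206), day 7 replicate 1 (0.0247), day 14 replicate 2 (0.0257) or day 21 replicate 3 (0.0442). In the other arms the F test over days called 0 of 8, against 1.88% of all genes in sham IF, 4.48% in BCAS AL and 5.23% in BCAS IF. Unadjusted, 1 of 24 had p under 0.05 there, Snap25 in BCAS AL, against 17.6% to 20.5% of all genes, and limma-voom called 0.

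Over all 20 groups limma's F test called 4 of 8 genes, against 42.7% of all genes: Rph3a (adjusted p = 0.00924), Nefh (0.0233), Sez6l2 (0.0240) and Nefl (0.0258). Nefm missed the threshold (0.0545) and was called in 8 of the 78 fits that left out 1 library. Snap25 also missed it (0.0679), as did Stmn2 (0.173) and Syt1 (0.256). Snap25 had its highest group means in sham AL day 7 (2.82 ± 2.22 FPKM, SD, n = 4), BCAS AL day 21 (1.97 ± 1.22) and sham IF day 14 (1.92 ± 1.52), and its lowest in BCAS IF day 30 (0.466 ± 0.233). Syt1 was highest in BCAS AL day 21 (0.932 ± 0.778 FPKM, SD, n = 4) and lowest in BCAS IF day 30 (0.249 ± 0.0734). Without sham AL day 7 replicate 3, 0 of the 8 were called over the 20 groups, and without replicate 1 of that group 2 were, Nefh and Rph3a among the 4 above.

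A few libraries in several groups were high in most of these genes. Summed over the 7 genes other than Stmn2, a grouping chosen after the values were seen, the highest library was sham AL day 7 replicate 3 (21.8 FPKM). It was followed by sham IF day 14 replicate 1 (17.0 FPKM) and by replicate 1 of sham AL day 7 (15.5 FPKM). Next came the third replicates of BCAS AL day 14 (12.2 FPKM) and day 21 (11.4 FPKM), replicate 2 of BCAS IF day 21 (11.1 FPKM) and replicate 4 of sham AL day 14 (9.99 FPKM). The median library had 4.39 FPKM and the lowest, sham AL day 30 replicate 4, had 1.52 FPKM. These libraries came from 6 groups of both surgeries and both diets. In sham IF day 14, Nefl stood at 3.77, 0.785, 0.923 and 0.769 FPKM and Snap25 at 4.17, 1.39, 0.894 and 1.202 FPKM, with replicate 1 high in both.

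Across libraries, 7 of the genes varied together and Stmn2 did not vary with them. The measure was Pearson's r of log2(FPKM + 1) deviations from the group means over 78 libraries, with p-values from 100000 permutations within groups, adjusted over the 28 pairs, and each pair shared its libraries, depth and composition. All 21 pairs among Nefl, Nefm, Nefh, Snap25, Syt1, Rph3a and Sez6l2 passed, with r from 0.472 (Nefm and Syt1) to 0.891 (Nefm and Nefh), a median of 0.727 and adjusted p up to 0.000533. Spearman's rho ran from 0.382 to 0.786, with adjusted p up to 0.00328. With the 2 libraries farthest from the median left out, r ran from 0.380 to 0.817.

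Within the neurofilaments r was 0.794 for Nefl and Nefm, which share exon bases, and 0.814 for Nefl and Nefh, which do not. Rph3a went most closely with Nefl (0.824) and Snap25 with Sez6l2 (0.801), while Snap25 and Syt1, partners in vesicle fusion, had r = 0.749. The 7 pairs with Stmn2 had r from -0.04 to 0.11, and none passed (adjusted p from 0.544 to 0.968 for r, and from 0.628 to 0.736 for rho, by the same permutation test).

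**Figure D3:**
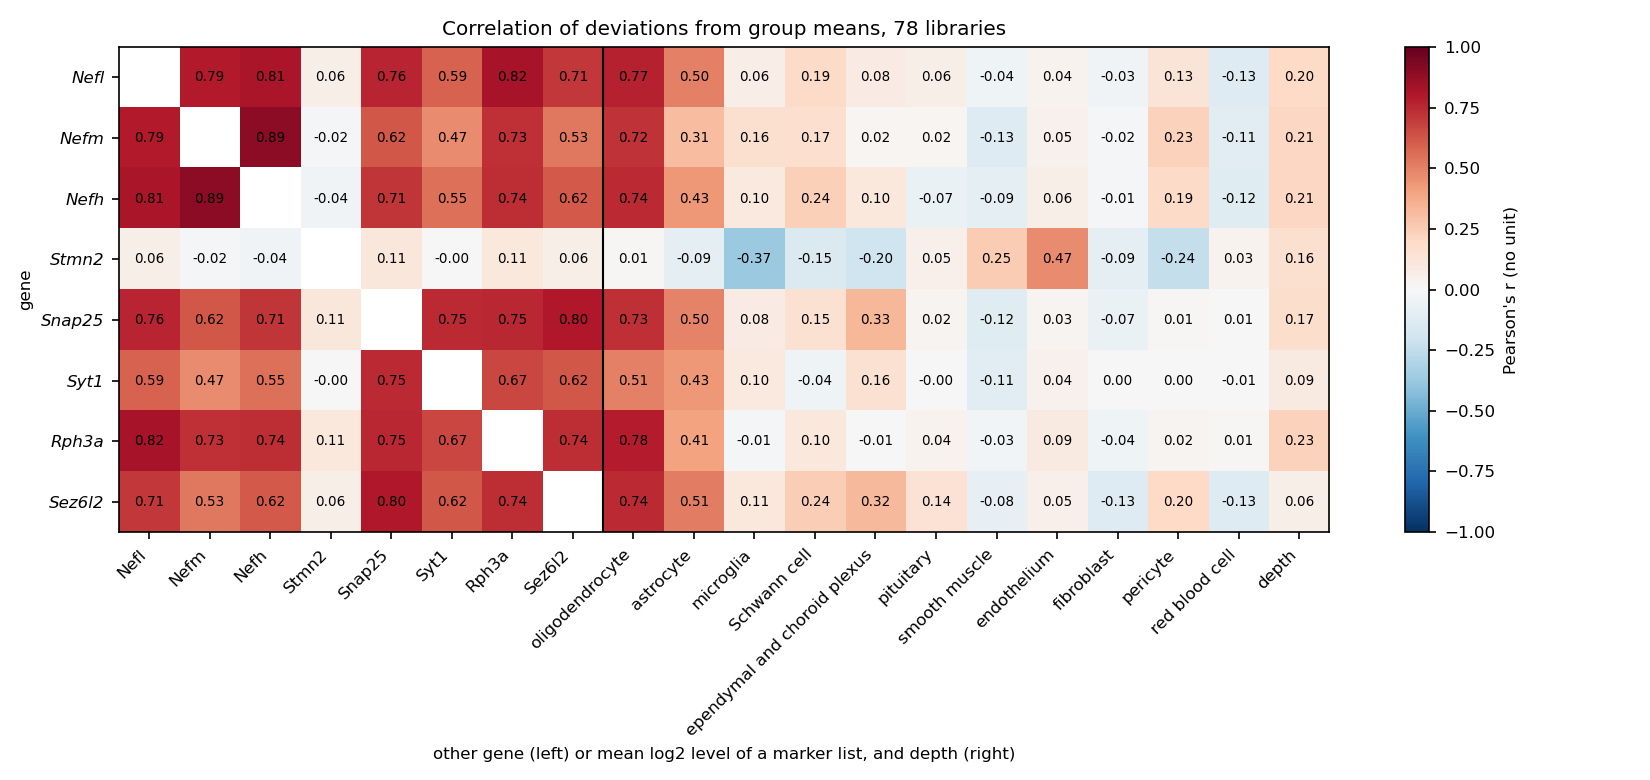
Pearson's r of deviations from group means over 78 libraries, between pairs of the 8 genes (left block) and between each gene and the mean log2(FPKM + 1) of 11 marker lists and the log2 depth (right block). The Stmn2 row stands apart: its r with the other genes is near 0, and its highest r with a marker list is 0.471 with endothelium.

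The oligodendrocyte markers varied with each of the 7 genes, in a family of 96 relations of the 8 genes with 11 marker lists and depth. Here a list is represented by the mean of log2(FPKM + 1) over its genes. Its r was 0.785 with Rph3a, 0.768 with Nefl, 0.743 with Sez6l2, 0.743 with Nefh, 0.732 with Snap25, 0.724 with Nefm and 0.507 with Syt1, each with an adjusted permutation p of 0.000137, which comes from the smallest p the permutations can give. Spearman's rho for these 7 ran from 0.529 (Nefm) to 0.785 (Sez6l2), and r stood at 0.4997 (Nefm) to 0.751 (Snap25) without the 2 farthest libraries. The astrocyte markers passed with 6 of the 7 genes, from r = 0.406 with Rph3a (adjusted p = 0.00603, permutation test) to 0.515 with Sez6l2, and did not pass with Nefm (r = 0.310, adjusted p = 0.0771).

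The 7 genes were not seen to vary with the markers of the artery wall. Their r with smooth muscle ran from -0.13 to -0.03 and with endothelium from 0.03 to 0.09, and none of these passed, nor did r with Schwann cell markers or with depth, by the permutation test. For Schwann cells, which make peripheral myelin, r ran from -0.04 (Syt1) to 0.24 (Sez6l2), and for depth from 0.06 (Sez6l2) to 0.23 (Rph3a). With ependymal and choroid plexus markers, rho passed the permutation test for Snap25 (0.36, adjusted p = 0.0266) and Sez6l2 (0.35, adjusted p = 0.0334). Their r with that list did not pass (adjusted p = 0.0537 and 0.0593, permutation test), and the rest of the 7 genes passed by neither measure.

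Stmn2 had another pattern, with endothelial markers at r = 0.471 (adjusted p = 0.00176, rho 0.453 with adjusted p = 0.00278, permutation test), and 0.449 without the 2 farthest libraries. With microglial markers r was -0.37 (adjusted p = 0.0227, rho -0.38 with adjusted p = 0.0145, permutation test), and -0.37 without the 2 farthest. With oligodendrocyte markers r was 0.0133 (adjusted p = 0.990, permutation test), and with smooth muscle it was 0.254 (adjusted p = 0.299). That Stmn2 differs from the other genes in its relation to a list was not tested.

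**Figure D4:**
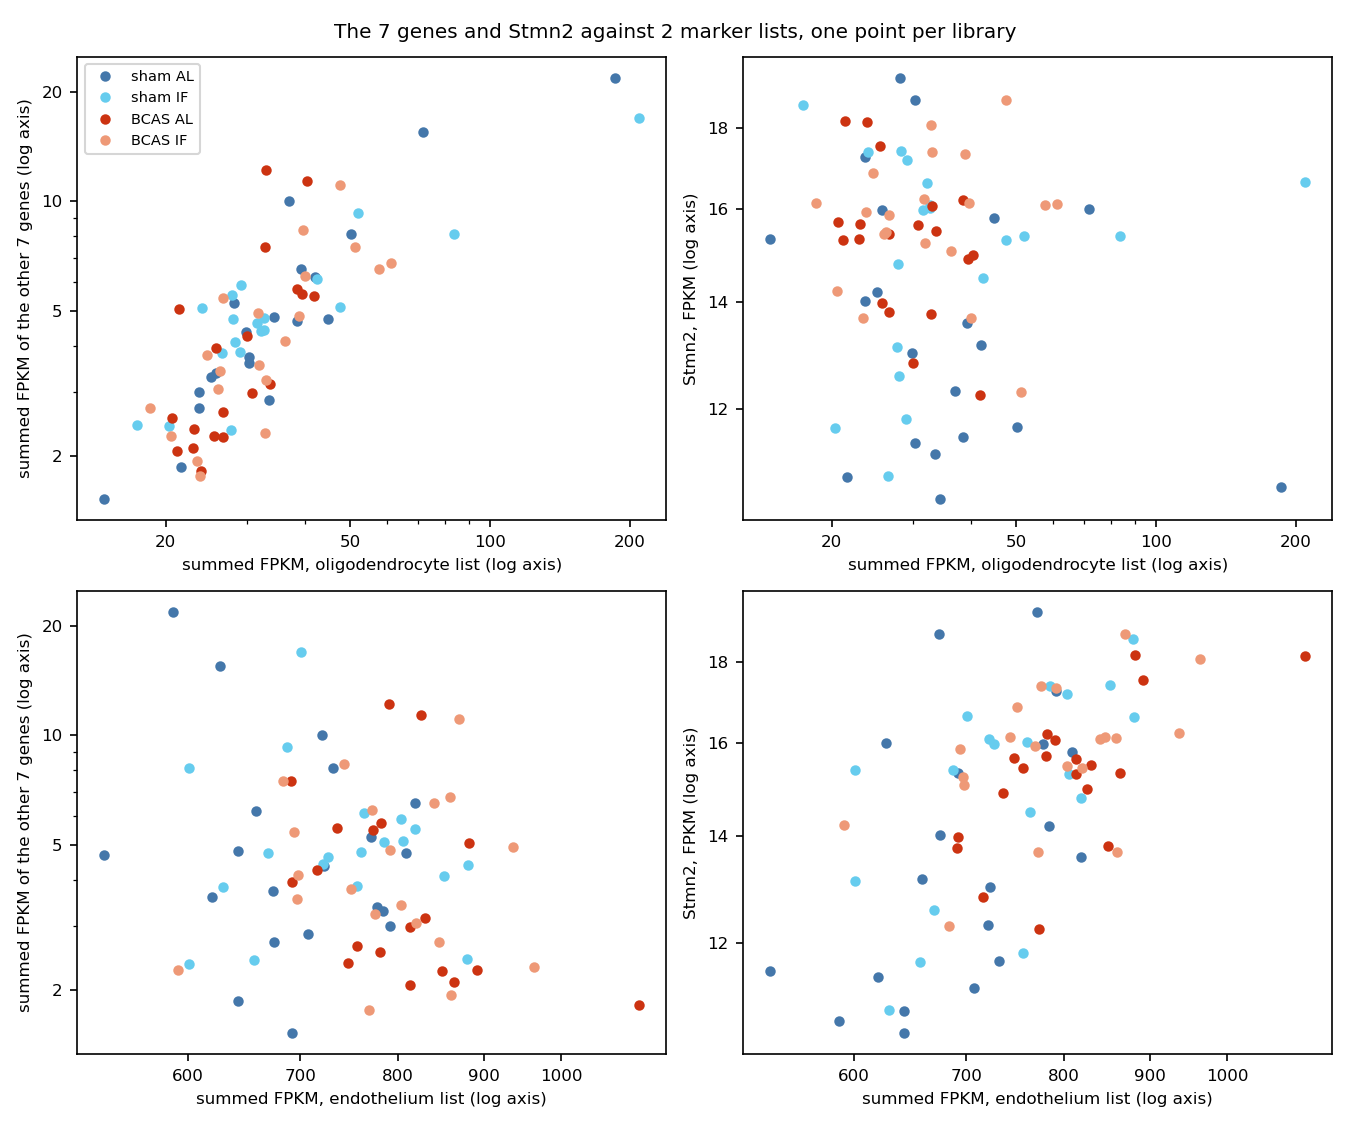
Each point is 1 of 78 libraries on log axes, coloured by arm, with the summed FPKM of the 7 genes (left) or the FPKM of Stmn2 (right) against the summed FPKM of oligodendrocyte markers (top) or endothelial markers (bottom). The 2 libraries with the highest oligodendrocyte sums, 209.4 and 185.5 FPKM, have the 2 highest sums of the 7 genes, 17.0 and 21.8 FPKM, while Stmn2 there is 16.7 and 10.7 FPKM.

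The match of the oligodendrocyte list with the 7 genes was not the same in every library. Sham IF day 14 replicate 1 had the highest oligodendrocyte sum (209.4 FPKM) and the second highest sum of the 7 genes, and sham AL day 7 replicate 3 came next (185.5 FPKM) with the highest sum of the 7. BCAS AL day 14 replicate 3 also ranked high for the 7 genes (12.2 FPKM) with an oligodendrocyte sum of 32.8 FPKM, near the median library at 30.5 FPKM. Sham AL day 14 replicate 4, with 9.99 FPKM for the 7 genes, had an oligodendrocyte sum of 36.9 FPKM.

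The genes most like each of the 8 were taken by r over 12452 protein-coding genes tested. For Snap25 they were Stmn3 (0.862), a stathmin, Vsnl1 (0.862), a neuronal calcium sensor, and Sncb (0.851), a synuclein. Nefl was most like Rph3a, Nefh (0.814) and Nefm (0.794), and Nefm and Nefh were most like each other and Nefl, followed by Cplx1, a complexin that clamps the SNARE complex, at 0.742 for Nefm and 0.808 for Nefh. Syt1 was most like Cplx1 (0.810), Slc32a1 (0.806), the vesicular transporter of GABA and glycine, and Sncb (0.753). Rph3a was most like Nefl, Cplx1 (0.814) and Vsnl1 (0.779). Among the genes most like Sez6l2 were Slc12a5 (0.827), the neuronal chloride exporter, and Stmn3 (0.819).

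For Stmn2 the nearest genes were AU021092 (0.788), Bpgm (0.644), an enzyme of the glycolytic side path that makes bisphosphoglycerate, and Fbln5 (0.635), an elastic fibre protein. Their median levels were 63.4, 47.8 and 85.3 FPKM. Among the 50 genes most like it, 0 were on a neuronal list and 4 on the endothelial list. Among the 50 most like each of the other 7 genes, 12 (Sez6l2) to 19 (Snap25) were on a neuronal list, with the 8 genes themselves counted, 1 (Syt1) to 8 (Nefl and Nefm) were oligodendrocyte markers and 0 were endothelial or smooth muscle markers.

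Which neurons were represented was read from levels alone. Slc17a7, the glutamate transporter of cortical neurons, had a median of 0.408 FPKM and a highest value of 1.68 FPKM in sham AL day 7 replicate 1. Gad1 and Slc32a1 had medians of 0.336 and 0.375 FPKM and peaked at 2.17 FPKM in BCAS AL day 14 replicate 3 and 2.35 FPKM in BCAS AL day 21 replicate 3. The cerebellar gene Pcp2 of Purkinje cells reached 18.7 FPKM in BCAS AL day 14 replicate 3 against a median of 0.160 FPKM. Gabra6 and Cbln1, genes of cerebellar granule cells, peaked at 2.42 and 3.39 FPKM in sham AL day 7 replicate 1, against medians of 0.0470 and 0.205 FPKM. Avp, the vasopressin gene of the hypothalamus, ranged from 2.82 to 2336 FPKM and peaked in sham AL day 1 replicate 4, a library outside the 7 highest for the 7 genes. Other region genes on the list looked otherwise. Hcrt was listed at 0 in 68 of 78 libraries and Pmch in 64. Drd2 had a median of 0.0383 FPKM, while Ppp1r1b ranged from 7.95 to 20.8 FPKM and Adora2a from 5.08 to 9.19 FPKM. The genes named were chosen after their values were seen, the peaks are levels in single libraries, and no test was run on them.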

How the data were processed

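RNA-seq libraries were built by Novogene from 2 ug of total RNA, per the labels' protocols. Values were deposited by the authors as FPKM in 1 table that also lists gene lengths, per the file headers. The submitters' processing notes name DESeq 1.10.1 and give it no role. Aligner, counter, strand setting and annotation were not given in the sources. Of the gene identifiers, 54495 are in GENCODE M21 (GRCm38), 98.3% with the same coordinates. FPKM times length gave whole fragments for 100% of values under 1000 fragments (tolerance 0.05), which gave the depth.

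Tests used limma 3.58.1 (trend, robust, statmod 1.5.0, R 4.3.3) on log2(FPKM + 1) in 1 model of 20 group means over 78 libraries. The filter kept the 15707 genes that reached 1 FPKM in 3 or more libraries. P-values were two-sided and adjusted by Benjamini-Hochberg over all genes (threshold 0.05). Contrasts were BCAS against sham, IF against AL, their interaction, and F tests over days and groups. Correlations used deviations from group means with 100000 permutations within groups (scipy 1.17.1, numpy 2.4.6). Both procedures were tested on simulated data. Figures used matplotlib 3.10.9.

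Named genes were the 8 members, the 3 protein-coding genes most correlated with each, and in each list described up to 4 genes with the smallest p, while levels of further list genes were chosen after their values were seen. Members and lists were chosen with earlier results of these data known. Alternatives were pseudocount 0.1, no filter, median-ratio scaling, quantile normalization, limma-voom, limma without the robust option, a fit of the compared groups alone, and leaving out each library or 3 libraries rich in short genes. Protein sequences were not used here. Values of some individual genes that these rules name are not reported here.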

Additional observations from a re-analysis of the deposited data

Results flagged for a closer look

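In 15 of 144 sets of 1 gene in 1 group of 4 libraries, 1 library lay far from the other 3 by Dixon's test. For normally distributed values chance alone gives this in about 1 of 20 sets. The sets are FPKM values of genes that share libraries and partly vary together, so the 2 rates cannot be compared. Sham IF day 14 replicate 1 was far above the other libraries of its group in 4 genes: Snap25 (4.17 FPKM, others 0.894 to 1.39), Nefl (3.77, others 0.769 to 0.923), Nefm (1.52, others 0.223 to 0.318) and Nefh (1.75, others 0.294 to 0.437). Sham AL day 14 replicate 4 was far above in the 3 neurofilament genes, with Nefl at 2.39 FPKM (others 0.421 to 0.685), Nefm at 1.16 (others 0.0952 to 0.216) and Nefh at 1.16 (others 0.184 to 0.268). BCAS AL day 7 replicate 3 stood above the rest in Nefm, at 0.274 FPKM (others 0.108 to 0.134), and in Nefh, at 0.218 FPKM (others 0.0124 to 0.0457).

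Single genes stood out in 6 further libraries. Nefl was at 1.91 FPKM in BCAS AL day 14 replicate 3 (others 0.457 to 0.580) and at 1.08 FPKM in sham IF day 30 replicate 2 (others 0.467 to 0.556). Nefm was at 0.250 FPKM in sham AL day 21 replicate 2 (others 0.129 to 0.137) and at 0.740 FPKM in BCAS IF day 21 replicate 2 (others 0.224 to 0.277). Sez6l2 was at 1.47 FPKM in BCAS AL day 30 replicate 1 (others 0.585 to 0.662). Stmn2 was the one gene with a library far below its group, 11.7 FPKM in sham IF day 30 replicate 1 against 17.2 to 17.4 FPKM in the others.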

How the results depend on the processing

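No called difference reversed its direction under the alternatives run. Of 8 genes, 5 were called for BCAS against sham under AL, all on day 7. Of the alternatives, 7 gave 4 to 6, with limma-voom at 4, and a fit of the compared groups alone gave 0. Nefl lost its call in 3 of the 8 alternatives and Nefm in 2, while Nefh, Rph3a and Sez6l2 each lost it in 1. Leaving out 1 library gave 0 to 6 calls. At most 1 was left without sham AL day 7 replicate 3 or 4 or BCAS AL day 7 replicate 2 or 4. IF against AL after sham had 0 calls, 3 with quantile normalization, 4 without the 3 libraries rich in short genes, and 0 to 3 without 1 library. Days within an arm had 5 calls, 0 when the arm was fitted alone and 0 to 6 without 1 library. The 20 groups had 4 calls, 2 with no filter on low values and 0 to 6 without 1 library. BCAS against sham under IF, IF against AL after BCAS and the interaction stayed at 0 calls under all 8 alternatives, and 21 pairs passed under each of the 3 alternatives run for likeness. A fit of fewer groups has fewer libraries to estimate the spread and does not use the spread of the other groups. The spread differed between groups: the SD of Nefl was 1.90 FPKM in sham AL day 7 and 0.454 FPKM in BCAS AL day 7. For Nefh the SD was 1.03 FPKM in sham AL day 7 and 0.0943 FPKM in BCAS AL day 7. The cause of the changes in calls was not tested. Scaling moved the median of all genes by at most 0.0146 (log2). No paired analysis was possible because no replicate numbers are shared between groups in the labels. Depth limits Nefh and Nefm most, at medians of 15 and 22 fragments per library.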
